A study of Rattus norvegicus with 6 samples.

Results

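The arginine genes described here were the 9 of 18825 genes in the deposited table with the symbols Arg1, Arg2, Nos2, Ass1, Asl, Slc7a1, Slc7a2, Ddah1 and Ddah2. They were chosen by name, and all 9 passed the filter on low counts that left 14427 genes to test. Messenger RNA came from full-thickness wounds in the dorsal skin of male Sprague-Dawley rats. Every rat, treated or not, had been made diabetic with a diet high in fat and sucrose followed by streptozotocin, which destroys insulin-producing beta cells. In the DST-MNs group (3 libraries) the wounds received microneedles that carried spheroids of dental pulp stem cells regulated with spermidine and TGF-β3. In the control group (3 libraries) the wounds were untreated. Libraries are numbered by the replicate their labels give. The labels give neither the age of the rats nor the day of collection, and none of the 6 libraries is labelled as given empty microneedles, so the needle, the cells, spermidine and TGF-β3 cannot be told apart.

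Arginine stands at a fork in wound tissue. Arginases split it into urea and ornithine, which feeds the synthesis of polyamines and of the proline used in collagen, while nitric oxide synthases turn it into nitric oxide and citrulline. In rodents, high Arg1 is a classical marker of macrophages of the repair type and high Nos2 one of macrophages of the inflammatory type, and keratinocytes, neutrophils and endothelium also express genes of this set. Carriers of the cell membrane bring arginine in, and a pair of enzymes rebuilds it from citrulline. Of a further pair, Ddah1 and Ddah2, the first removes methylated arginines, which inhibit nitric oxide synthases.

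Library totals ran from 12545206 to 13818548 estimated counts. Skin markers were uneven between libraries. The summed level of 7 keratinocyte markers was 4285, 310 and 1414 CPM in DST-MNs 1, 2 and 3, against 214, 15.1 and 182 CPM in controls 1, 2 and 3, where CPM are counts divided by the TMM-adjusted size of their library. Krt15 and Ivl were at 0 in at least 1 library. The sum of 6 skeletal muscle markers was 3671 to 4452 CPM in the DST-MNs libraries, against 5150, 13.8 and 238 CPM in controls 1, 2 and 3. Ckm and Myh4 were at 0 in control 2. Of the 6 tested keratinocyte markers 0 passed edgeR's test at an adjusted p below 0.05, 6 were higher at an unadjusted p below 0.05 and DESeq2 called 3 (median log2 change 4.19). Of the muscle and adipocyte markers 0 of 6 and 0 of 3 passed by edgeR, with 0 at an unadjusted p below 0.05, at medians of 1.39 and 1.15. DESeq2 called 0 of them, but it gave most of the muscle markers no adjusted p and so could not call those. Of 7 sebaceous gland markers, which summed to 661 to 838 CPM in DST-MNs and 106 to 148 CPM in controls, 4 passed with higher values (Elovl4, Awat1, Awat2 and Fasn). All 7 were higher at an unadjusted p below 0.05 by edgeR, and DESeq2 called 6 higher (median log2 change 4.0). Over all genes, 1414 of 14427 were higher at an unadjusted p below 0.05 by edgeR, and DESeq2 called 626 of 14343 higher. Controls were near the floor for Awat1 (0 to 0.389 CPM) and Awat2 (0 to 0.618 CPM), and Mc5r was at 0 in control 2. Elovl4 passed with each library left out. Fasn passed narrowly (adjusted p = 0.0499 by edgeR), missed with limma-voom (0.0519) and missed without DST-MNs 1, 2 or 3 or controls 2 or 3 (0.0707 to 0.162). Awat1 missed without DST-MNs 1, 2 or 3 (0.0543 to 0.0661), and Awat2 without DST-MNs 1, 2 or 3 or control 3 (0.0677 to 0.0899). The sum of 6 fibroblast markers was 53320 to 75390 CPM in DST-MNs libraries and 65000 to 93270 CPM in controls, with 0 of 6 passed by edgeR, 2 lower at an unadjusted p below 0.05 and 2 called lower by DESeq2, at a median of -0.55. In such bulk tissue, fewer cells of a type and less RNA per cell cannot be told apart.

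None of the 9 arginine genes passed the test between DST-MNs and control wounds. Arg1 and Ddah1 were the members whose groups did not overlap in CPM, both with lower values in the treated wounds. The threshold was an adjusted p of 0.05 in the quasi-likelihood F test of edgeR, with Benjamini-Hochberg adjustment across every gene tested, and 0.776% of all genes passed it (112 genes, 95 higher and 17 lower). At an unadjusted p below 0.05 there were 2 members, both lower, where 6.88% of all genes were lower at that level. In CPM the groups did not overlap, in either direction, for 2 of the 9 members and for 22.9% of all genes. The Wald test of DESeq2 called 2 members lower, Arg1 and Ddah1, where it called 2.73% of all genes lower. limma-voom called 0 members. The 112 genes became 23, 34 and 14 without DST-MNs 1, 2 and 3, and 402, 34 and 53 without controls 1, 2 and 3, while the count of members called stayed 0. The median log2 change was 0.03 over the members and 0.0044 over all genes tested.

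**Figure D1:**
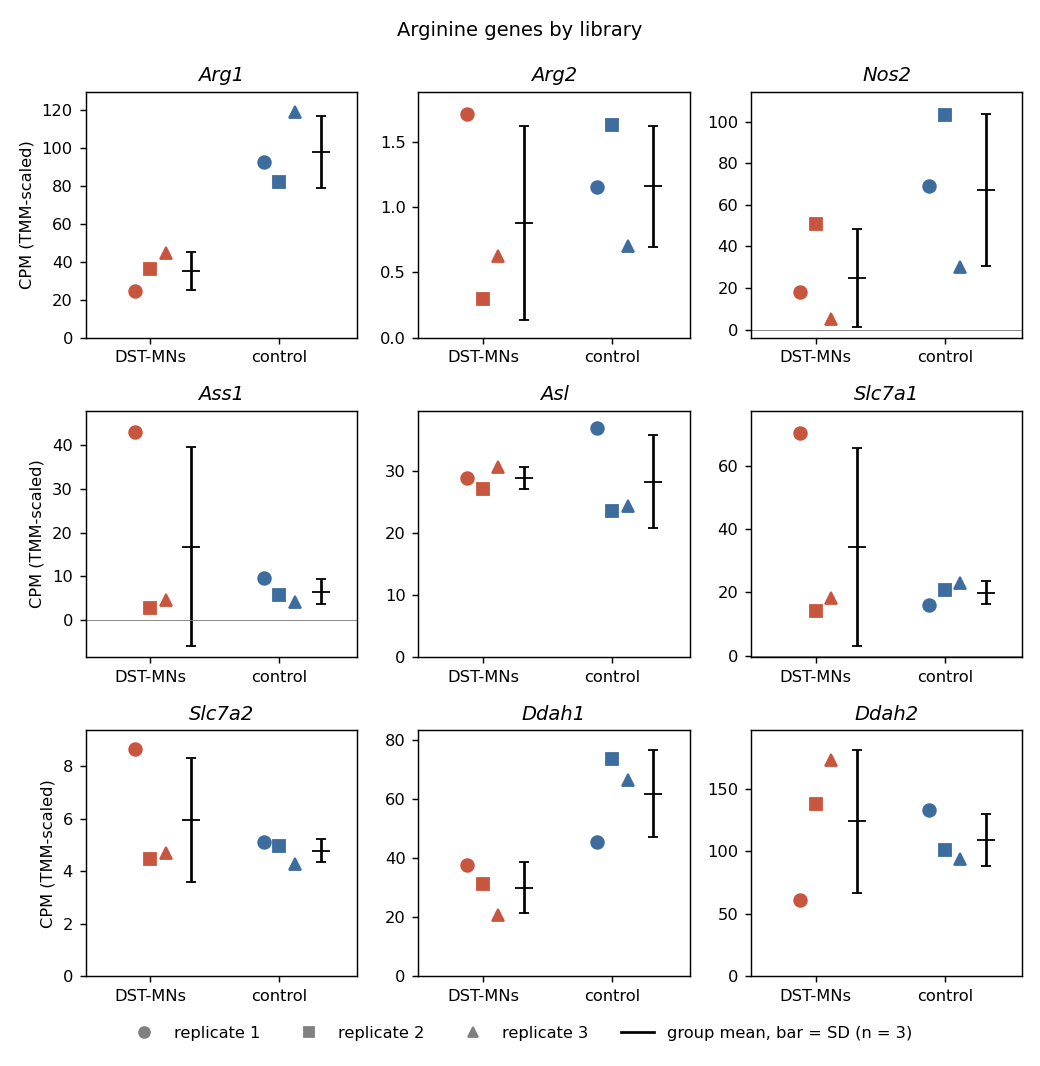
Level of each arginine gene (vertical axes, TMM-scaled CPM on linear scales) in the DST-MNs and control libraries, with a symbol for each replicate and black marks for the group mean and SD (n = 3). Arg1 lay at 24.6 to 44.7 CPM in DST-MNs libraries and at 82.0 to 119 CPM in controls, while Ass1 and Slc7a1 were high in DST-MNs replicate 1 alone.

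Arg1 (gene ID 29221), the cytosolic arginase, stood at 24.6, 36.2 and 44.7 CPM in DST-MNs 1, 2 and 3, against 92.2, 82.0 and 119 CPM in controls 1, 2 and 3. The highest treated library was thus below the lowest control. The means were 35.2 ± 10.1 CPM in DST-MNs and 97.6 ± 18.9 CPM in control wounds (SD, n = 3 each). The log2 change was -1.47 (SE 0.25, 95% interval -2.06 to -0.88), which is 2.78-fold lower, with an adjusted p of 0.063 by edgeR. DESeq2 gave an adjusted p of 1.69e-06 and limma-voom one of 0.0573. With any 1 library left out, the log2 change ran from -1.68 to -1.28 and the adjusted p from 0.0541 to 0.179.

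Macrophages express Arg1, so their markers are set beside it. The sum of 10 macrophage markers was 4573, 4282 and 3137 CPM in DST-MNs 1, 2 and 3, against 4563, 4035 and 3517 CPM in controls 1, 2 and 3, with overlapping groups and none of the 10 at 0 in any library. Lyz2, a lysozyme, made up most of that sum, at 3163, 2655 and 1950 CPM in DST-MNs against 2517, 2190 and 1657 CPM in controls. Without Lyz2, an alternative chosen after seeing the data, the sum was 1409, 1627 and 1187 CPM in DST-MNs 1, 2 and 3, against 2047, 1845 and 1860 CPM in controls 1, 2 and 3, and the groups did not overlap. Of the 10 markers edgeR called 1 lower and DESeq2 2, and 3 were lower at an unadjusted p below 0.05, each without overlap. The edgeR call was the scavenger receptor Cd163, at 82.9, 102 and 78.8 CPM in DST-MNs against 339, 264 and 287 CPM in controls (log2 change -1.75, SE 0.16, adjusted p = 0.0115 by edgeR). It missed the threshold without DST-MNs 1 or 3 (0.0728 and 0.0823). The other two, named with Lyz2 after their values were seen, were Mrc1, the mannose receptor of repair-type macrophages, and Cd14, the lipopolysaccharide co-receptor. Mrc1 was at 239, 300.3 and 199 CPM in DST-MNs against 418, 390.0 and 500 CPM in controls (log2 change -0.83, SE 0.19, adjusted p = 0.131 by edgeR and 0.000835 by DESeq2). Cd14 stood at -0.46 on the log2 scale (SE 0.15; adjusted p = 0.221 by edgeR and 0.115 by DESeq2). Within the sum without Lyz2, Cd163 and Mrc1 had the largest differences in mean. Cd163 averaged 88.0 CPM in DST-MNs against 297 CPM in controls, and Mrc1 246 against 436 CPM. A sum without these genes as well was not taken, so the lack of overlap is not shown for the other markers. Of the 10 changes, 4 were positive and 6 negative, with a median log2 change of -0.31. The positive ones were Cd68 (0.36), Csf1r (0.23), Adgre1 (0.20) and Lyz2 (0.29). Their groups overlapped, and their adjusted p ran from 0.431 to 0.817 by edgeR. The part of macrophages in the Arg1 values was not tested.

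Arg2 (29215), the mitochondrial arginase, was scarce. Its estimated counts were 25.1, 3.91 and 7.98 in DST-MNs 1, 2 and 3 and 15.1, 20.7 and 9.07 in controls 1, 2 and 3. They were fractional in all 6 libraries, which was so for no other member, and its level is therefore uncertain. The groups overlapped, and the log2 change of -0.39 had a 95% interval of -1.98 to 1.21 (adjusted p = 0.809, edgeR). Per unit of transcript length, Arg1 supplied most of the arginase message in every library. On the TPM scale, which divides by transcript length and then by the library sum, its share of Arg1 plus Arg2 was 93.2%, 99.2% and 98.7% in DST-MNs and 98.7%, 98.0% and 99.4% in controls.

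Nos2 (24599), the inducible nitric oxide synthase, spread widely within both groups. It stood at 18.2, 50.8 and 5.42 CPM in DST-MNs 1, 2 and 3, against 68.9, 103 and 30.1 CPM in controls 1, 2 and 3. DST-MNs 2 lay above control 3, so the groups overlapped. The log2 change of -1.44 was close in size to that of Arg1, but its SE was 0.79, its 95% interval ran from -3.31 to 0.43 and its adjusted p was 0.408 (edgeR). Leaving out DST-MNs 2 gave -2.49, and leaving out DST-MNs 3, the lowest library, gave -0.97.

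The neutrophil markers varied from library to library in nearly the same order as Nos2. Their sum over 8 genes was 187, 491 and 145 CPM in DST-MNs 1, 2 and 3, against 453, 503 and 201 CPM in controls 1, 2 and 3. The 3 libraries lowest in Nos2 (DST-MNs 1, DST-MNs 3 and control 3) were also the 3 lowest in this sum. S100a8 and S100a9 made up most of that sum in every library. S100a8 was at 57.0, 115.5 and 72.6 CPM in DST-MNs, against 114, 149 and 49.5 CPM in controls. S100a9 was at 98.5, 315.5 and 62.3 CPM in DST-MNs, against 266, 283 and 110 CPM in controls. The part of neutrophils in the Nos2 values was not tested. Of the 8 markers, 5 were tested, and 0 passed by edgeR, by DESeq2 or at an unadjusted p below 0.05, at a median log2 change of -0.84. Ngp was at 0 in at least 1 library.

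Set against each other, arginase and Nos2 kept no steady balance within a group. The ratio of Arg1 to Nos2 TPM was 4.8, 2.92 and 39.1 in treated replicates 1, 2 and 3, against 5.50, 3.28 and 16.7 in control replicates 1, 2 and 3. In each group replicate 3 stood far above the other two, and the groups overlapped. The mean log2 ratio was 2.99 ± 1.93 in DST-MNs and 2.74 ± 1.19 in control wounds (SD, n = 3 each), a difference of 0.25 (exact permutation test, two-sided, p = 0.9). With Arg2 added to Arg1 the difference was 0.28 (exact p = 0.9). The sign rested on single libraries, since the Arg1 to Nos2 difference was -0.84 without DST-MNs replicate 3 and -0.26 without control replicate 2. With 3 libraries against 3 an exact permutation test cannot go below p = 0.1. It was run on 5 ratios, and adjusted over those 5 every p was 0.9.

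**Figure D2:**
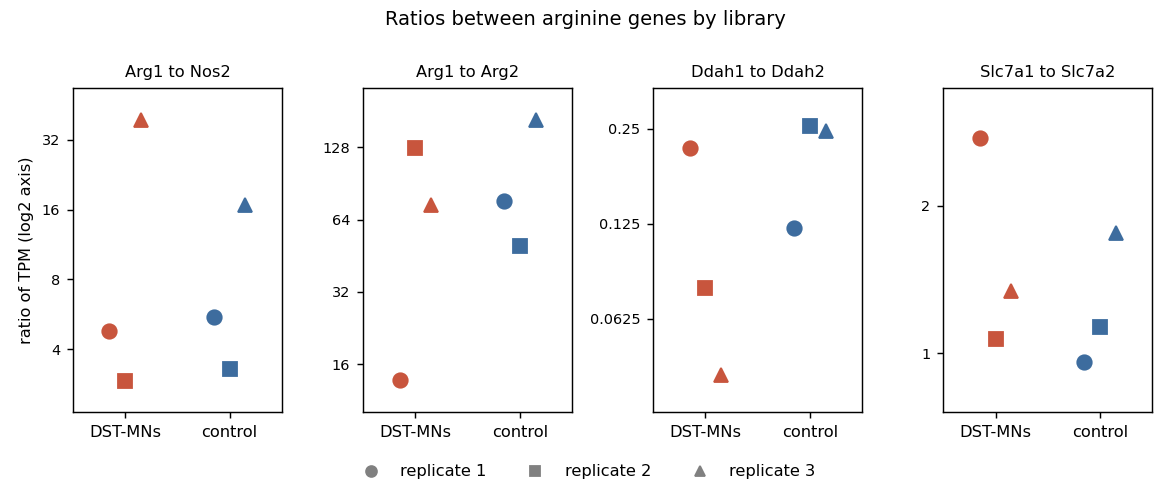
Ratio of TPM between pairs of arginine genes (vertical axes, log2 scales) in DST-MNs and control libraries, with a symbol for each replicate. The Arg1 to Nos2 ratio spans 2.92 to 39.1 in DST-MNs and 3.28 to 16.7 in control libraries, and the groups overlap in all 4 panels.

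The dimethylarginine hydrolases gave a lower value for Ddah1 and overlapping values for Ddah2. Ddah1 (64157), which breaks down asymmetric dimethylarginine, stood at 37.8, 31.3 and 20.8 CPM in DST-MNs 1, 2 and 3, against 45.4, 73.7 and 66.4 CPM in controls 1, 2 and 3. In CPM the groups did not overlap, the highest treated library being 37.8 and the lowest control 45.4 CPM. In TPM they did, with DST-MNs 1 at 18.6 and control 1 at 18.28 TPM. The log2 change was -1.04 (SE 0.27, 95% interval -1.68 to -0.41, adjusted p = 0.152 by edgeR). DESeq2 gave an adjusted p of 0.00825. With any 1 library left out the change ran from -1.25 to -0.83.

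Ddah2 (294239), the second member of that family, was at 61.2, 138 and 173 CPM in DST-MNs, against 133, 101 and 93.8 CPM in controls. DST-MNs 1 was the lowest of the 6 libraries and DST-MNs 3 the highest. The log2 change was 0.18 (95% interval -0.69 to 1.06, adjusted p = 0.835 by edgeR). The ratio of Ddah1 to Ddah2 TPM was 0.217, 0.0782 and 0.0415 in the treated wounds, against 0.121, 0.256 and 0.247 in controls, a difference of -1.14 in mean log2 ratio (exact permutation test, two-sided, p = 0.2, adjusted over 5 ratios 0.9).

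Ass1 and Slc7a1 shared a pattern in which 1 treated library stood far above the rest. Ass1 (25698), argininosuccinate synthase, takes the first step that rebuilds arginine from citrulline. It stood at 42.9, 2.72 and 4.71 CPM in DST-MNs 1, 2 and 3, against 9.66, 5.67 and 4.20 CPM in controls 1, 2 and 3. Its log2 change of 1.37 (SE 1.01, 95% interval -1.04 to 3.77, adjusted p = 0.538 by edgeR) became -0.82 without DST-MNs replicate 1. Slc7a1 (25648), the broadly expressed cationic amino acid transporter, stood at 70.2, 14.2 and 18.1 CPM in DST-MNs, against 16.0, 20.8 and 22.9 CPM in controls. Its log2 change of 0.78 (SE 0.60, 95% interval -0.64 to 2.21, adjusted p = 0.554) became -0.30 without DST-MNs replicate 1.

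Slc7a2 (64554), the carrier known in mouse macrophages to supply arginine for nitric oxide synthesis, differed in the same library by less. It was at 8.67, 4.48 and 4.71 CPM in DST-MNs 1, 2 and 3, against 5.10, 4.97 and 4.28 CPM in controls 1, 2 and 3. The log2 change was 0.32 (95% interval -0.46 to 1.09, adjusted p = 0.662 by edgeR), and -0.07 without DST-MNs replicate 1. The ratio of Slc7a1 to Slc7a2 TPM was 2.75, 1.07 and 1.34 in the treated wounds, against 0.958, 1.13 and 1.76 in controls. The mean log2 ratios differed by 0.35 (exact permutation test, two-sided, p = 0.6).

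DST-MNs 1 was also the library richest in epithelial markers. Its keratinocyte sum of 4285 CPM was above that of DST-MNs 3, which had 1414 CPM and an Ass1 level of 4.71 CPM. The sum of 6 markers of the inner root sheath of the hair follicle, a list added after the data were seen, was 1264, 3.45 and 7.07 CPM across the treated libraries, against 20.9, 1.86 and 2.96 CPM in controls 1, 2 and 3. The sum of 4 adipocyte markers was 182, 12.8 and 32.4 CPM in DST-MNs, against 56.0, 13.4 and 31.1 CPM in controls. The part of hair follicle, epidermis or fat in the Ass1 and Slc7a1 values was not tested.

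The stretch of 250 bases before the transcription start is shown for Ass1 and Slc7a1 because these members stood out together in DST-MNs 1. The sequences are those of RefSeq on build GRCr8, at chr3:35149480-35149729 for Ass1 and chr12:11664238-11664487 for Slc7a1, both on the plus strand and 5′ to 3′. Capitals mark matches, on either strand, to a GC box (GGGCGG), an E-box (CACGTG), an AP-1 site (TGANTCA), a cyclic AMP response element (TGACGTCA), a C/EBP-ATF response element (TGATGNAA) or a TATA box (TATAAA).
Ass1: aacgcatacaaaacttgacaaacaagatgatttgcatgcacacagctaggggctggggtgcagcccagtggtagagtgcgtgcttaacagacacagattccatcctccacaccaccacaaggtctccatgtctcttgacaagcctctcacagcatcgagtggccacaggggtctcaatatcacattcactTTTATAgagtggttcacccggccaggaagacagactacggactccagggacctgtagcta
Slc7a1: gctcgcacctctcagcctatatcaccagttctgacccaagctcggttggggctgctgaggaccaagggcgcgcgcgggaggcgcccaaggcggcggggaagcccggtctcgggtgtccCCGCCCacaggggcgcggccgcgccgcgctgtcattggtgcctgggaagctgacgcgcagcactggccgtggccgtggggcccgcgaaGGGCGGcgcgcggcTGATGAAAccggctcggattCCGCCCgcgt

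The promoters of the pair differed in make-up. That of Ass1 was 51.2% G and C, equal to the median of 51.2% over 33469 rat promoters of that length. It held 1 match, to the TATA box motif at -60 (the first base of the match, with -1 just before the start). The match is on the strand opposite to the gene and reads TTTATA as printed. A match to this motif was present in 12.9% of all promoters. The promoter of Slc7a1 was 73.2% G and C. It held 3 GC boxes, at -132, -44 and -10, a motif present in 30.5% of all promoters, and 1 C/EBP-ATF response element at -30, present in 3.4%. No match overlapped another. The E-box, AP-1 and cyclic AMP motifs, found in 5.59%, 6.34% and 1.59% of all promoters, had 0 matches in these windows.

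**Figure D3:**
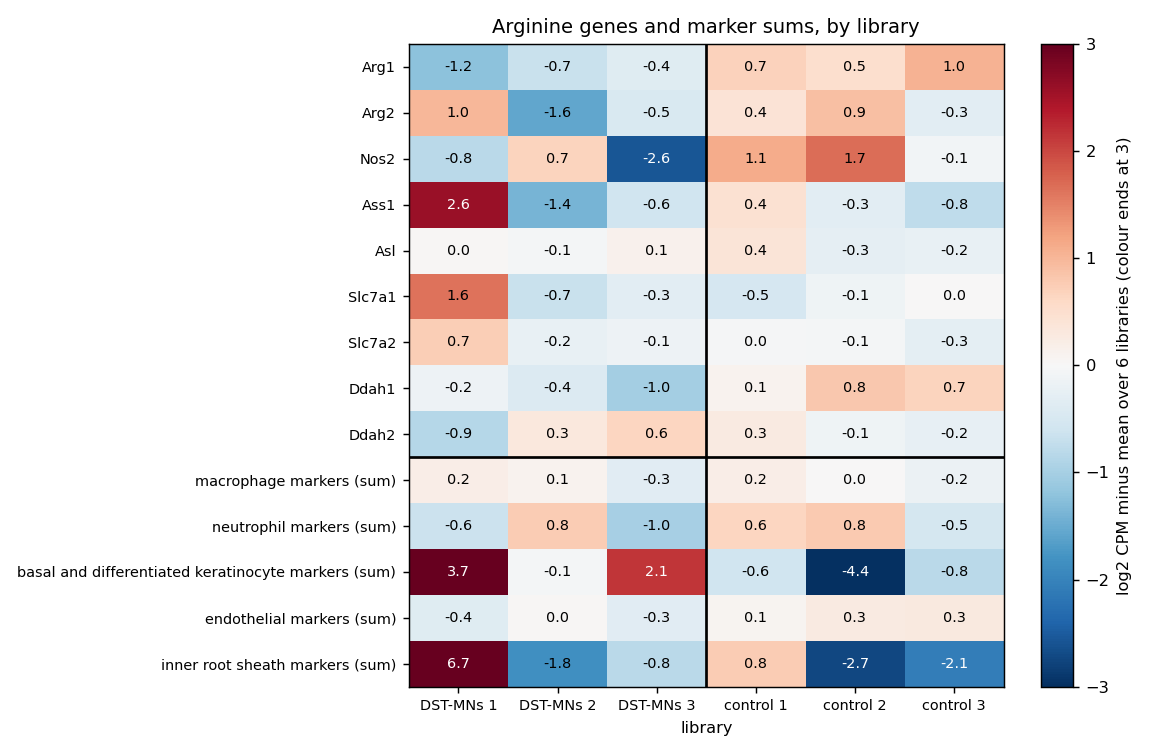
Deviation of log2 CPM from the mean of the 6 libraries (colour and printed values) for each arginine gene and for the summed CPM of marker lists, with DST-MNs libraries on the left and controls on the right. Arg1 is below its mean in all 3 DST-MNs libraries, and Ass1, Slc7a1 and the inner root sheath markers are highest in DST-MNs 1.

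Asl (59085), argininosuccinate lyase, which completes the rebuilding of arginine, had the narrowest interval of the 9 members. It stood at 28.8, 27.1 and 30.7 CPM in DST-MNs 1, 2 and 3, against 37.0, 23.6 and 24.3 CPM in controls 1, 2 and 3. Its log2 change was 0.03 (SE 0.20, adjusted p = 0.958 by edgeR) with a 95% interval of -0.44 to 0.50. All 3 treated values lay inside the range of the controls.

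**Figure D4:**
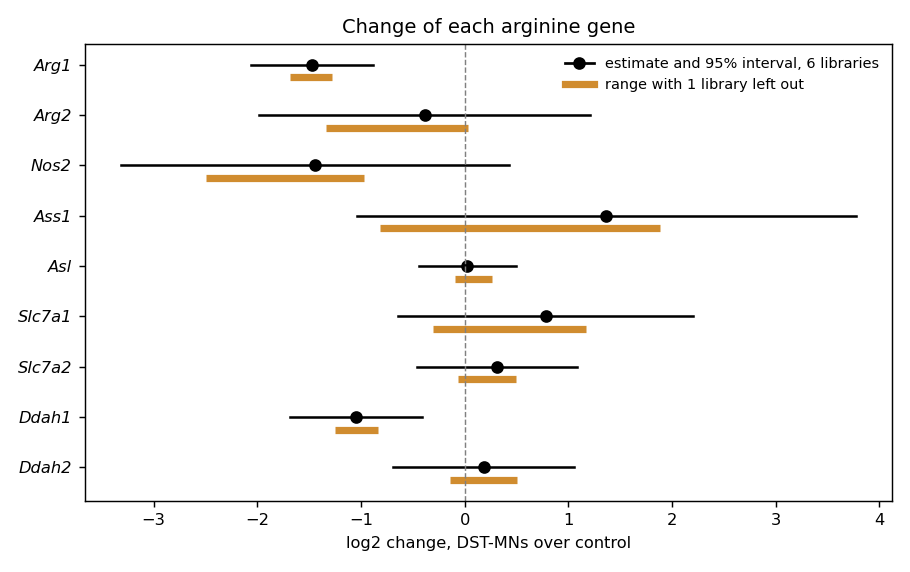
Log2 change of each arginine gene in DST-MNs over control wounds (horizontal axis), with the 95% interval from all 6 libraries in black and the range with 1 library left out in orange. The intervals of Arg1 (-2.06 to -0.88) and Ddah1 (-1.68 to -0.41) lie below 0, and the orange ranges of Arg2, Ass1, Asl, Slc7a1, Slc7a2 and Ddah2 cross 0.

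Ranked by TPM, the set ran from Ddah2 and Arg1 at the top to Arg2 at the bottom in both groups. In DST-MNs wounds the mean levels were 163 TPM for Ddah2, 41.7 for Arg1, 21.7 for Asl, 17.6 for Ass1, 14.1 for Ddah1, 7.59 for Slc7a1, 7.57 for Nos2, 3.81 for Slc7a2 and 1.08 for Arg2. In control wounds they were 129 TPM for Ddah2, 103 for Arg1, 25.9 for Ddah1, 20.2 for Asl, 17.0 for Nos2, 5.75 for Ass1, 3.89 for Slc7a1, 3.12 for Slc7a2 and 1.24 for Arg2. Neighbours in the order overlapped over the libraries of a group, except that Arg1 lay above the next gene and Arg2 below Slc7a2 in both groups, and Ddah2 lay above Arg1 in DST-MNs alone. In controls the ranges of Ddah2 (117 to 151 TPM) and Arg1 (85.5 to 131 TPM) overlapped.

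Of the other nitric oxide synthases and the genes that supply or bind them, 0 of 11 passed. DESeq2 called 1, which was also the 1 with an unadjusted p below 0.05, with 9 of 11 changes negative and a median log2 change of -0.33. That gene was Nos3, the endothelial synthase, at 41.7, 52.0 and 43.2 CPM in DST-MNs 1, 2 and 3, against 68.5, 80.8 and 70.0 CPM in controls 1, 2 and 3. Its groups did not overlap (log2 change -0.68, SE 0.13, adjusted p = 0.0886 by edgeR and 0.000634 by DESeq2). The sum of 6 endothelial markers was 783, 1029 and 797 CPM in DST-MNs, against 1057, 1219 and 1234 CPM in controls, and all 6 changes were negative, with a median of -0.34. Of these markers 0 passed by edgeR, 2 were lower at an unadjusted p below 0.05 and DESeq2 called 1. Their von Willebrand factor gene Vwf was at a log2 change of -0.70 (adjusted p = 0.0723). Whether endothelial content set the values of Nos3 was not tested. Nostrin, which moves that synthase from the membrane, and Cav1, the caveolin that holds it inactive, had log2 changes of -0.46 and -0.47 (adjusted p = 0.344 and 0.375).

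Nos1, the neuronal synthase, which muscle fibres also express, was at 0.482, 1.10 and 1.73 CPM in DST-MNs and at 1.31, 0 and 0 CPM in controls 1, 2 and 3. The muscle sums were 3974, 4452 and 3671 CPM in DST-MNs 1, 2 and 3, against 5150, 13.8 and 238 CPM in controls 1, 2 and 3. Nos1 was at 0 in the controls with the low sums, but within the treated libraries the orders differed, and the part of muscle in the Nos1 values was not tested. Gch1, which starts the synthesis of the cofactor tetrahydrobiopterin, was at a log2 change of -0.50 (adjusted p = 0.538). In the pathway that nitric oxide acts on, 0 of 5 genes passed by edgeR or DESeq2 and 1 had an unadjusted p below 0.05. Gucy1a1, a subunit of the nitric oxide receptor, was at 29.7, 51.3 and 50.4 CPM in DST-MNs and at 30.3, 29.4 and 28.8 CPM in controls (log2 change 0.57, SE 0.22, adjusted p = 0.263). Its partner subunit Gucy1b1 had a log2 change of -0.29 (adjusted p = 0.538), and Pde5a, which breaks down cyclic GMP, one of -0.33 (adjusted p = 0.536). The median of these 5 was -0.14.

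**Figure D5:**
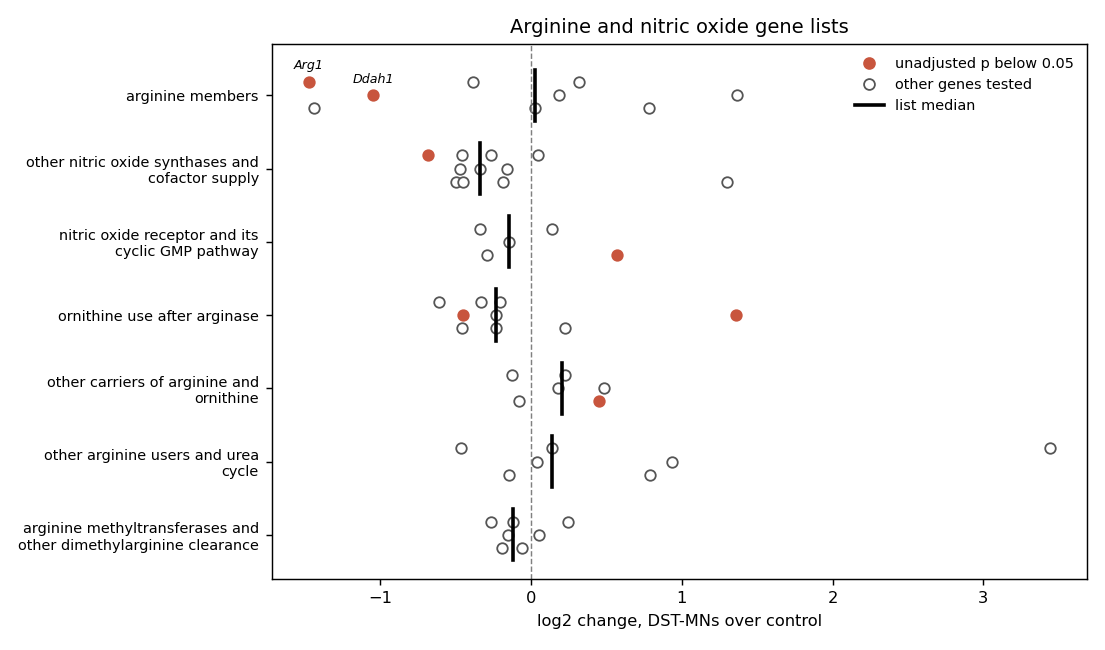
Log2 change in DST-MNs over control wounds (horizontal axis) of the arginine genes and of related gene lists (rows), with filled points for an unadjusted p below 0.05 and black bars for list medians. The medians of the 7 rows lie between -0.33 and 0.21, and no point passed after adjustment over all genes.

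A list of the polyamine, proline and glutamate routes that ornithine can enter held 9 tested genes. Not all of them act on ornithine itself. Of the 9, 0 passed by edgeR or DESeq2, and 1 was higher and 1 lower at an unadjusted p below 0.05. The median log2 change of the list was -0.23. Pycr1, a reductase of proline synthesis, had a log2 change of -0.61 (adjusted p = 0.346 by edgeR). Aldh4a1, which oxidises the shared intermediate to glutamate, was at 29.0, 7.85 and 11.2 CPM in DST-MNs and 7.96, 4.12 and 6.61 CPM in controls, and its log2 change of 1.36 (adjusted p = 0.27) was 0.60 without DST-MNs replicate 1. Odc1, the enzyme that commits ornithine to polyamines, was at 129, 72.7 and 62.0 CPM in DST-MNs and 89.8, 102 and 113 CPM in controls.

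Other carriers of arginine and ornithine had a median log2 change of 0.21 over 6 tested genes, with 0 passed by edgeR or DESeq2 and 1 at an unadjusted p below 0.05. Slc38a9, the lysosomal carrier through which arginine reports to mTORC1, was at 27.5, 23.4 and 33.1 CPM in DST-MNs, against 19.8, 21.0 and 20.6 CPM in controls, without overlap (log2 change 0.45, SE 0.16, adjusted p = 0.228 by edgeR). The mitochondrial carriers Slc25a15 and Slc25a29 had log2 changes of 0.18 and 0.49 (adjusted p = 0.665 and 0.638). Other users of arginine and the urea cycle had 0 of 7 tested genes passed by edgeR, by DESeq2 or at an unadjusted p below 0.05, at a median of 0.14. Padi3, a peptidylarginine deiminase of the hair follicle, was at 35.0, 0.22 and 0.393 CPM in DST-MNs and 1.47, 0.621 and 1.17 CPM in controls, the same single high library as for Ass1. DESeq2 gave no adjusted p for Padi3. Padi4, the deiminase of neutrophils, had a log2 change of 0.94 (adjusted p = 0.586), or -0.29 without DST-MNs replicate 1, and Agmat one of 0.79 (adjusted p = 0.362). Of 7 arginine methyltransferases, 0 passed by edgeR or DESeq2, at a median of -0.12, and 0 had an unadjusted p below 0.05. Prmt1, the main source of asymmetric dimethylarginine, stood at a log2 change of -0.15 (SE 0.16, adjusted p = 0.678). Prmt2 and Prmt3 stood at -0.27 and -0.19 (adjusted p = 0.5 and 0.621).

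The genes whose log2 CPM followed Arg1 most closely over the 6 libraries, among 12513 compared, were Gopc, Slit3 and Tshz3, with Pearson r of 0.986, 0.985 and 0.983. Their changes were smaller than that of Arg1. Slit3, a secreted guidance ligand, was at 53.0, 55.4 and 62.1 CPM in DST-MNs, against 86.0, 79.3 and 87.8 CPM in controls (log2 change -0.57, adjusted p = 0.0864 by edgeR). For Nos2 they were Tnfrsf21, Cyp4f18 and Nuak1, at 0.994, 0.993 and 0.991. Cyp4f18, a hydroxylase of leukotriene B4 known from mouse neutrophils, was at 2.61, 5.94 and 1.41 CPM in DST-MNs, against 6.49, 9.94 and 4.20 CPM in controls (log2 change -1.05, adjusted p = 0.411). These are descriptions over 6 points that share their libraries and their group difference.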

How the data were processed

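The labels place 6 samples in 2 groups of 3 biological replicates. RNA was extracted with TRIzol and paired-end sequenced on a DNBSEQ-T7, per the labels' protocols. The authors deposited estimated counts without scaling, per the file headers, and 90.5% to 91.4% of them are whole. They also deposited TPM and FPKM, both scaled by gene length, and a signal of normalised counts, which was not used. The build was mRatBN7.2, per the submitters' processing notes. The aligner, the counter and the way reads of similar or overlapping genes were divided are not given in these sources. TPM served levels and ratios between genes (log2 of TPM + 0.1), and FPKM an alternative.

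Counts were rounded, filtered with filterByExpr (minimum count 10), scaled by TMM and tested with edgeR 4.0.16 glmQLFTest in R 4.3.3. SEs are the log2 change over the root of F. A prior count of 2 was used for log2 CPM. Alternatives used DESeq2 1.42.0, limma 3.58.1, other scalings and filters, the replicate block and leaving out each library. Ratios used exact permutation tests (scipy 1.17.1). Depth limits Arg2 most, with 3.91 to 25.1 counts.

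The members and lists were chosen with earlier results of these data known, and the inner root sheath list was added after the data were seen. Named beside the members were, per list, genes past the threshold or else up to 3 with the smallest p, and the 3 genes most like Arg1 and Nos2 among genes that averaged at least 1 on the log2 CPM scale and had a gene symbol. Of the genes under that rule, 1 is not reported here. Odc1, Gch1, Nos1, Mrc1, Cd14, Lyz2, Cd68, Csf1r, Adgre1, S100a8 and S100a9 were picked outside that rule, after their values were seen. Promoters came from RefSeq (GRCr8), matched by gene ID for 4 members. No coordinates of the files' build were used.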

Additional observations from a re-analysis of the deposited data

How the results depend on the processing

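The 112 genes called became 38 with at least 10 counts required in every library and 1018 with DESeq2, and ran from 14 to 402 with 1 library left out. The count of arginine genes called, 0, became 2 with DESeq2 (Arg1 and Ddah1) and stayed 0 under the other scalings and filters, limma-voom, the limma trend test on log2(TPM + 1) and each library left out. Arg2 could not be tested with at least 10 counts in every library.

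The labels do not say whether the replicate numbers pair the rats. Same-numbered libraries deviated together with correlations of -0.0245, 0.101 and 0.109, and DST-MNs 1 was closer to control 3 (0.104). With so few libraries, these correlations cannot settle whether the numbers pair the rats. With the replicate block, 123 genes were called, 1 of them a member, Arg1 (log2 change -1.50, adjusted p = 0.0474). Nos2 was not called with the block (log2 change -1.78), but its adjusted p by edgeR was 0.0823, against 0.408 without the block. The paired ratio differences are the unpaired ones, 0.25 for Arg1 to Nos2.

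With 1 library left out, the log2 change ran from -1.33 to 0.037 for Arg2, -0.82 to 1.89 for Ass1, -0.092 to 0.26 for Asl, -0.30 to 1.17 for Slc7a1, -0.066 to 0.50 for Slc7a2 and -0.14 to 0.50 for Ddah2. Arg1, Nos2 and Ddah1 kept a negative sign in all 15 alternatives. Differences in log2 ratio ran from -0.84 to 0.98 for Arg1 to Nos2, -0.81 to 1.02 with Arg2 added, -1.44 to 0.017 for Arg1 to Arg2, -1.78 to -0.60 for Ddah1 to Ddah2 and -0.045 to 0.63 for Slc7a1 to Slc7a2. Without TMM factors the median of all genes shifted to 0.12 and Arg1 stood at -1.36, and in the TPM test the figures were 0.12 and -1.30. The log2 ratio of mean macrophage marker sums, -0.015, became -0.45 without Lyz2, an alternative chosen after seeing the data. No ratio changed sign with another pseudocount or with FPKM. The cause of these changes was not tested.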
